A study of Mus musculus with 64 samples.

Results

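The heterozygous loss of Abi1 was examined in mammary tumors of 2 female mice, by setting both tumors of a heterozygous KO mouse against both tumors of its Cre- control across all genes. Tumors 3 and 6 came from G164, the heterozygous KO (Abi1 fl/wt, Cre+). Tumors 6 and 8 came from G144, its Cre- control of the same floxed genotype, so 4 of the 8 tumors of the series were compared. Both mice carried the PyVT (PyMT) transgene and 1 floxed and 1 wild-type Abi1 allele, and they differed by design in Cre. PyMT tumors arise in mammary epithelium that expresses the middle T antigen of polyomavirus. The Cre recombinase was driven by the MMTV promoter, which is active mainly in mammary epithelium. By the methods of the study, the floxed and the PyMT mice were C57BL6 and the Cre line was of mixed strain, and by its pathology data the KO mouse was older than the control. Each genotype was a single mouse. Cre, age, the rest of the genome and the animal itself therefore cannot be told apart, and the p-values measure only the spread between tumors of a mouse.

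ABI1 is a subunit of the WAVE regulatory complex, which receives signals from the GTPase RAC1 and switches on the ARP2/3 complex, which in turn nucleates branched actin filaments. The complex holds 1 ABI protein (ABI1, ABI2 or, in blood cells, ABI3), 1 WAVE protein, NCKAP1, CYFIP1 or CYFIP2, and BRK1. In epithelium it shapes lamellipodia and cell junctions, and in leukocytes a paralogous set that includes NCKAP1L (HEM1) does the same work.

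Total RNA without ribosomal RNA was read to a depth of 50346075 to 66713353 counts in genes per tumor, summed over 4 lanes and 2 runs. Of 55385 genes, 22187 had enough counts to be tested, and levels are given as CPM, the counts of a gene relative to the TMM-scaled total of its library, with no correction for gene length. Reads outside genes made up 28.3% and 28.7% of all reads in the control tumors and 34.9% and 33.1% in the KO tumors, and whether this share plays a part in the results was not tested. Luminal markers were compared between the mice, and the summed level of the 20 luminal genes was 6527 and 6899.8 CPM in the control and 6456 and 6347 CPM in the KO. These levels do not by themselves show that a sample is tumor. Where values are written as pairs, the control tumors (6, then 8) stand before the KO tumors (3, then 6). Krt8, a keratin of luminal cells, was at 735 and 934 against 745 and 763 CPM, and Krt18, its partner, at 768 and 937 against 800.0 and 817 CPM.

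Abi1 itself (chromosome 2, 22940073 to 23040241 of GRCm38, a protein-coding gene on the minus strand whose exons were counted) was at 111 and 130.1 CPM in the control and 63.1 and 66.7 CPM in the KO, or 121 ± 13.4 against 64.9 ± 2.53 CPM (SD, n = 2 tumors each). Both KO tumors lay below both control tumors, and the KO held 0.538 times the control level (log2 fold change -0.89 ± 0.16, adjusted p = 0.0362). In the same scaling, Abi1 was at 114 and 122 CPM in G184 and 8.93 and 6.47 CPM in G174, the mice with 2 floxed alleles without and with Cre. The call of Abi1 rests on all 4 tumors. Without tumor 6 of the control the adjusted p was 0.182, without tumor 8 of the control 0.115, without tumor 3 of the KO 0.168 and without tumor 6 of the KO 0.175, at log2 fold changes from -1.02 to -0.78. Leaving out a tumor of G184, which only adds to the estimate of the spread, gave adjusted p-values of 0.0517 and 0.0571.

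Across all genes, 890 passed an adjusted p of 0.05 (4.01% of the 22187 tested). Of these, 604 were higher in the KO (2.72%) and 286 were lower (1.29%), and 5607 genes had an unadjusted p under 0.05. The 2 directions were unlike in kind. The higher genes were at a median of 5.15 CPM and changed by a median of 1.52 on the log2 scale, and 508 of the 604 changed at least 2-fold. The lower genes were at a median of 47.1 CPM and changed by a median of -0.75, and 84 of the 286 changed at least 2-fold. The median over all genes tested was 0.02. Higher genes made up 67.9% of the calls, and 83.6% (754 higher, 148 lower) when counts were scaled by library size alone, which moved the median of all genes to 0.09. By DESeq2 1398 genes were higher and 1404 lower. Tumors were then left out in turn, in the order of tumors 6 and 8 of the control and tumors 3 and 6 of the KO. This left 9, 14, 111 and 33 higher and 7, 6, 7 and 4 lower genes, with a lone tumor assumed to vary like those of the other mice. Both KO tumors lay above both control tumors in 31.3% of all genes tested and below them in 28.8%, which is the background for the separations described below.

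**Figure D1:**
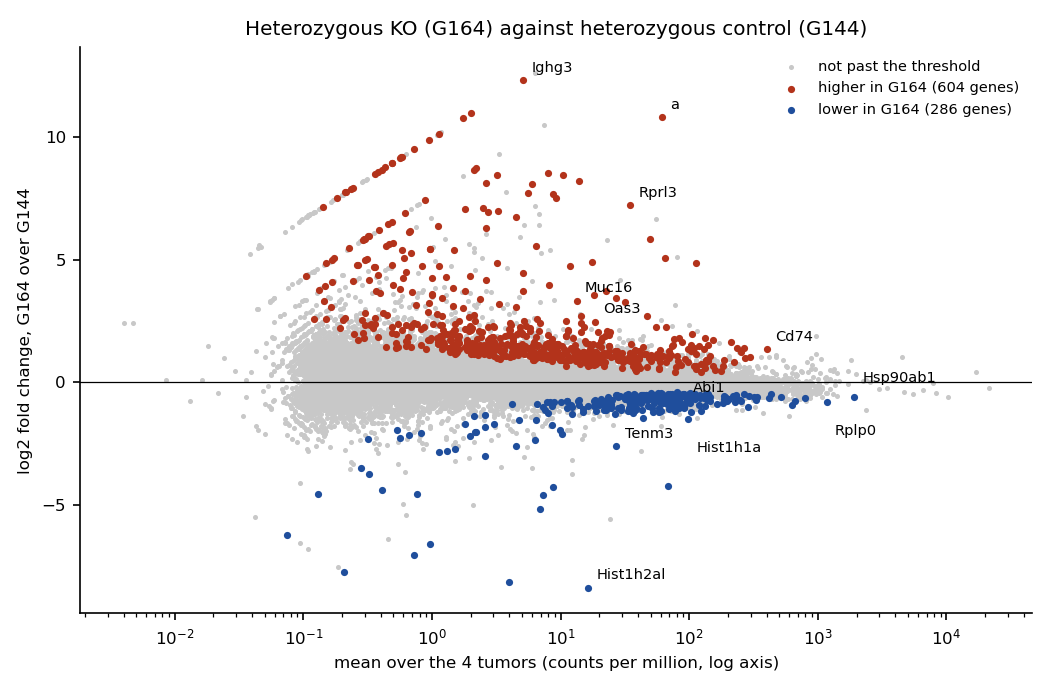
Log2 fold change of each gene tested (heterozygous KO G164 over heterozygous control G144, vertical axis) against its mean level over the 4 tumors (CPM, log axis). Red points are the 604 genes higher and blue points the 286 genes lower at an adjusted p of 0.05, and the higher genes spread over larger changes and lower levels than the lower genes.

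Among the 12 genes of the WAVE complex and its partners, Abi1 fell, Cyfip2 rose and 10 did not pass the test. Cyfip2, the CYFIP paralog used in blood cells and neurons, was at 4.1 and 3.84 CPM in the control and 9.26 and 12.5 CPM in the KO (log2 fold change 1.46 ± 0.20, adjusted p = 0.0249). In G184, the other mouse without Cre, it stood at 11.5 and 12.7 CPM (log2 difference of the KO from G184 -0.15). The other ABI genes did not pass. Abi2 was at 61.5 and 58.4 against 56.9 and 50.3 CPM (log2 fold change -0.16 ± 0.11, adjusted p = 0.41). Abi3, the ABI gene of blood cells, was at 6.2 and 6.99 against 12.6 and 10.7 CPM (log2 fold change 0.82 ± 0.31, adjusted p = 0.158). Nckap1, the core scaffold, was at 292 and 308 against 299 and 308 CPM and Cyfip1, which binds RAC1, at 180.1 and 223 against 195 and 208 CPM, and both overlapped between the mice. Wasf2, the main epithelial WAVE gene, was at 67.8 and 73.5 against 86.7 and 92.7 CPM (log2 fold change 0.34 ± 0.14, adjusted p = 0.19), apart between the mice but short of the threshold. Wasf1 and Wasf3 were low, at 0.503 and 0.95 against 0.591 and 0.561 CPM and 2.48 and 1.65 against 1.73 and 0.962 CPM. Brk1 was at 80.3 and 88.9 against 76.4 and 81.5 CPM, Rac1 at 246 and 273 against 239 and 252 CPM and Ndel1 at 94.3 and 84.2 against 96.1 and 92.7 CPM, and none of these separated the mice.

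Most of the corresponding genes of blood cells were higher in the KO. Of 10 such genes tested, 8 rose and 0 fell, with a median log2 fold change of 0.93 against 0.02 over all genes. Against G184 the median of the list was -0.19, so it had another sign than against G144. The gene of WASP itself did not pass, and 1 member lay lower in both KO tumors. That was Arpc1b, named after its values were seen, the ARP2/3 subunit that prevails in blood cells and is also found in epithelium, at 415 and 378 against 290 and 256 CPM (log2 -0.54 ± 0.17, adjusted p = 0.108). DESeq2 called 9 of the list higher and 1 lower, and the summed level, to which Arpc1b added most, was 545 and 523 CPM in the control and 552 and 562 CPM in the KO. Rac2, the RAC GTPase of leukocytes, was at 4.48 and 5.29 CPM in the control and 11.9 and 16.1 CPM in the KO (log2 fold change 1.52 ± 0.22, adjusted p = 0.0268). Dock2, which loads it with GTP, was at 21.1 and 23.1 CPM in the control and 46.9 and 61.4 CPM in the KO (log2 fold change 1.29 ± 0.15, adjusted p = 0.0163). Fyb, an adaptor of T cells, was at 11.9 and 15.8 against 34.5 and 32.3 CPM (1.27 ± 0.20, log2). Coro1a, a coronin of leukocytes, was at 23.1 and 23 against 41.3 and 53 CPM (1.03 ± 0.15, log2), both past the threshold. Without each of the 4 tumors, in the order given above, 0, 0, 2 and 0 of these genes were called higher. The ARP2/3 complex, a list that also holds Arpc1b, had no called gene among its 10 genes (median -0.22), and DESeq2 called 2 of them lower. Its most abundant member by the mean of the 4 tumors, Actr2, was at 370.0 and 349.7 against 338 and 309 CPM (log2 fold change -0.15 ± 0.10, adjusted p = 0.366).

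**Figure D2:**
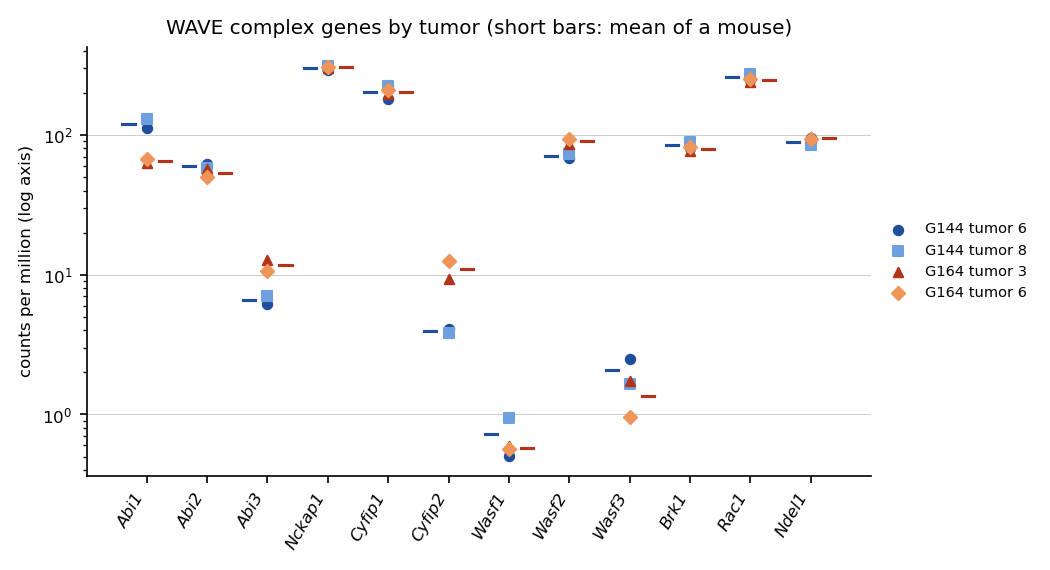
Level of 12 WAVE complex and partner genes (CPM, log axis) in tumors 6 and 8 of the heterozygous control G144 (blue) and tumors 3 and 6 of the heterozygous KO G164 (red and orange), with a short bar at the mean of each mouse. Abi1 is lower and Cyfip2 is higher in both KO tumors, while most of the other genes lie at similar levels in the mice.

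Interferon-inducible genes rose in numbers. Type I interferons act through STAT2 and IRF9, among other factors, on promoters that hold an interferon-stimulated response element, and interferon gamma acts on an overlapping set of genes that includes the guanylate-binding proteins. Of 24 type I interferon response genes, 15 rose and 0 fell (median log2 fold change 1.20), and in all 24 both KO tumors lay above both control tumors. Of 21 interferon-gamma inducible GTPases and chemokines, 12 rose and 0 fell (median 1.66). Without 1 tumor at a time, in the same order, 0, 0, 0 and 1 of the first list and 0, 0, 2 and 3 of the second were called higher, and DESeq2 called 24 and 19 higher.

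The response element was looked for in RefSeq promoter windows (250 bases before to 50 after the start, build GRCm38.p6), as GAAANNGAAA on either strand, which reads TTTCNNTTTC on the other. The motif is in 3.99% of the promoters of the 27025 genes in that table. Of the 27 genes of both interferon lists that rose, 16 have a promoter there and 12 of these hold the motif. Of all 45 members of these lists, 28 have a promoter there and 20 of these hold it. The motif was thus common in the lists as a whole, and not only in the genes that rose. Fewer than 80% of the risen genes have an entry, so a share over them is void and the match is only a description. Stretches upstream of the RefSeq start of 5 of the risen genes are shown for what they share, in the direction of the gene and with the motif in capitals. For Gbp5 the stretch lies within the gene as counted here (142493978 to 142522344). A match does not show that a factor binds there.
Oas3 (chr5:120777705-120777754, minus strand): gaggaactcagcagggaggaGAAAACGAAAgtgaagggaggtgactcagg
Gbp5 (chr3:142496749-142496798, plus strand): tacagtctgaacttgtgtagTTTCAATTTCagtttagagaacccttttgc
Ifit3 (chr19:34583387-34583436, plus strand): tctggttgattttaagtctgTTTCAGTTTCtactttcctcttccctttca
Cxcl10 (chr5:92349073-92349122, minus strand): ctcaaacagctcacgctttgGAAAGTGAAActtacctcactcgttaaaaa
Stat2 (chr10:128270256-128270305, plus strand): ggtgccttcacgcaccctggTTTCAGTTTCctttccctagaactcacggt

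Oas3, whose protein senses double-stranded RNA, was at 5.06 and 6.15 CPM in the control and 38.6 and 23.5 CPM in the KO, a 5.55-fold rise (log2 fold change 2.47 ± 0.35, adjusted p = 0.0257). Oas2, its neighbour, was at 18.4 and 19.9 CPM in the control and 109.6 and 71.7 CPM in the KO (log2 fold change 2.24 ± 0.37, adjusted p = 0.0322). Tumor 3 of the KO was the higher of the KO tumors for both genes. Ifit3, which binds viral RNA with its relatives, was at 34.8 and 50.4 CPM in the control and 198 and 134 CPM in the KO (log2 fold change 1.97 ± 0.41, adjusted p = 0.0481). Irf7, the factor that amplifies type I interferon, was at 81.8 and 124 CPM in the control and 354 and 292 CPM in the KO (log2 fold change 1.65 ± 0.26, adjusted p = 0.0293). Stat2, a signalling gene, rose less, at 39.2 and 48.7 CPM in the control and 102 and 88.6 CPM in the KO (1.12 ± 0.20, log2). Stat2 and the next 3 members of the list were chosen after their values were seen. Ifit1 rose (log2 1.45 ± 0.29), while Isg15, at 17 and 23.8 against 57.6 and 41.4 CPM, and Mx1, at 16.8 and 20.9 against 58.4 and 40.4 CPM, did not pass (adjusted p = 0.0592 and 0.149).

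Of the GTPases, Gm4951 was at 4.66 and 7.24 CPM in the control and 70.9 and 44.8 CPM in the KO, a 9.73-fold rise (log2 fold change 3.28 ± 0.31, adjusted p = 0.0106). Gbp9 was at 9.77 and 15.6 CPM in the control and 116 and 47.6 CPM in the KO (log2 fold change 2.69 ± 0.42, adjusted p = 0.0287), with the KO tumors more than a factor of 2 apart and both above the control. Gbp5, which assembles on membranes around pathogens, was at 1.57 and 2.53 CPM in the control and 11.5 and 7.41 CPM in the KO (log2 fold change 2.21 ± 0.33, adjusted p = 0.0278). Cxcl10, a chemokine that draws T cells, was at 1.77 and 2.12 CPM in the control and 7.18 and 3.96 CPM in the KO (1.52 ± 0.30, log2). Cxcl11 was called too but stayed under 0.5 CPM in all 4 tumors (0.0152 and 0.0179 against 0.438 and 0.192 CPM). Irf1, a direct target of interferon gamma, was at 104 and 100.3 CPM in the control and 106 and 89.8 CPM in the KO (log2 fold change -0.06 ± 0.13, adjusted p = 0.8), and Ifng itself at 0.0457 and 0.0179 against 0.0762 and 0.016 CPM, so neither separated the mice. Cxcl10, Irf1, Ifng and Gbp2 were chosen after their values were seen. Gbp2 was at 44.7 and 53.7 against 111 and 77.9 CPM (log2 fold change 0.94 ± 0.22, adjusted p = 0.0621), and in the other control mouse, G184, it stood at 963 and 682 CPM. The median log2 difference of the KO from G184 was -0.61 over the type I list and -2.46 over the interferon-gamma list, so both medians had another sign against G184 than against G144.

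Families of interferon-inducible genes were chosen after the values were seen. Of 13 genes of the Ifi200 cluster, which encode DNA sensors, 11 rose, with Ifi213 at 3.21 and 3.48 CPM in the control and 20.8 and 16.8 CPM in the KO (log2 fold change 2.49 ± 0.39, adjusted p = 0.0287). Of 10 Gbp genes 6 rose, of 7 Oas genes 5 and of 8 Gimap genes, GTPases of lymphocytes, 4, and none of these families had a lower gene. Summed over the family, Gbp genes were at 145 and 195 CPM in the control and 549 and 354 CPM in the KO.

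Genes of antigen presentation rose too. Of 10 MHC class II genes 8 rose (median log2 fold change 1.37), and of 15 MHC class I genes 5 rose (median 0.53). Cd74, the invariant chain that escorts class II molecules, was the most abundant of the higher genes, at 227 and 225 CPM in the control and 569 and 579 CPM in the KO (log2 fold change 1.35 ± 0.13, adjusted p = 0.0108). H2-Aa, a class II chain, was at 152 and 145 CPM in the control and 403 and 374 CPM in the KO (log2 fold change 1.39 ± 0.14, adjusted p = 0.0108). H2-Eb1 was at 128 and 129 CPM in the control and 343 and 336 CPM in the KO (1.40 ± 0.16, log2). Tumors of a mouse differed by little beside this, and the mice did not overlap. H2-Ob, a regulator of class II loading found in B cells, was at 0.548 and 0.771 against 2.46 and 9.56 CPM (log2 fold change 3.19 ± 0.61, adjusted p = 0.0414), led by tumor 6. In class I, H2-Q6 was at 54.4 and 65.3 CPM in the control and 222 and 193 CPM in the KO (log2 fold change 1.79 ± 0.24, adjusted p = 0.023). H2-Q7 was at 56.6 and 63.7 against 163 and 129.6 CPM (1.28 ± 0.19, log2). These are near-identical copies, and reads can be split between them. Nlrc5, the activator of class I genes, was at 41 and 41.3 against 113 and 84.4 CPM (1.26 ± 0.26, log2). H2-M3 was at 5.06 and 6.31 against 10.6 and 11.2 CPM (0.94 ± 0.16, log2). B2m, the light chain, chosen after its values were seen, was at 603 and 751 against 1212 and 1024 CPM and did not pass (log2 fold change 0.72 ± 0.22, adjusted p = 0.109). Against G184 the medians had the other sign, -0.27 for class II and -0.77 for class I. Without 1 tumor at a time, 0, 0, 6 and 0 class II and 0, 0, 0 and 0 class I genes were called.

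Markers of leukocytes were higher in the KO tumors, and in bulk tumors more cells of a type and more RNA per cell cannot be told apart. All 19 T cell genes had positive changes and 10 rose (median 1.59), and their sum was 19.2 and 21.2 CPM in the control and 47 and 58.8 CPM in the KO. Cd3e, a chain of the T cell receptor complex, was at 0.853 and 0.861 CPM in the control and 2.65 and 3.08 CPM in the KO (log2 fold change 1.74 ± 0.24, adjusted p = 0.0249). Cd8a, of cytotoxic T cells, was at 2.44 and 1.9 CPM in the control and 6 and 6.19 CPM in the KO (log2 fold change 1.49 ± 0.21, adjusted p = 0.0257). Cd3e and Cd8a were chosen after their values were seen. Cd5, Cd6, Cd28 and Trbc1 led the list by size of change, with log2 fold changes of 2.39, 2.0, 1.90 and 1.88. None of these genes passed 3 CPM in any tumor. Of 13 NK and cytotoxic genes 2 rose, Klrk1 (1.37 and 1.42 against 4.88 and 3.4 CPM, log2 1.57 ± 0.23) and Nkg7 (1.19 and 0.95 against 2.65 and 2.68 CPM, log2 1.31 ± 0.25). Without 1 tumor at a time, 0, 0, 0 and 0 T cell genes were called.

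Macrophage genes, 18 tested, were all positive, and 3 rose. Adgre1, which encodes F4/80, was at 24.6 and 29.4 CPM in the control and 51.6 and 47.2 CPM in the KO (log2 fold change 0.87 ± 0.17, adjusted p = 0.0425). Ccr2, of recruited monocytes, was at 23.4 and 25.2 against 45.1 and 44.5 CPM (log2 fold change 0.88 ± 0.16, adjusted p = 0.039). Ly6c2 was at 0.289 and 0.323 against 2.02 and 3.24 CPM (log2 fold change 3.10 ± 0.40, adjusted p = 0.021). Csf1r, which macrophages need to live, chosen after its values were seen, was at 54.3 and 69.7 against 102 and 113 CPM and missed the threshold (log2 fold change 0.79 ± 0.20, adjusted p = 0.0753). The dendritic cell list held 3 higher genes of 12, Itgax (23.1 and 23.7 against 53.6 and 46.9 CPM, log2 1.10 ± 0.16), Clec9a (0.548 and 0.627 against 1.83 and 1.84 CPM, log2 1.64 ± 0.24) and the interferon-inducible Bst2 (31.8 and 42.5 against 86.8 and 70.6 CPM, log2 1.08 ± 0.22). Among 12 neutrophil and mast cell genes, S100a9 was at 0.945 and 0.968 against 5.2 and 25.2 CPM (log2 fold change 3.99 ± 0.82, adjusted p = 0.0473). Csf3r was at 3.31 and 3.01 against 6.73 and 9.77 CPM (1.38 ± 0.23, log2). S100a9 is also made by keratinizing epithelium. Against G184 the medians of the NK, macrophage and dendritic cell lists were -0.58, -0.25 and -0.39, below 0, and that of T cells was 0.15. Of 26 other chemokines and cytokines only Ccl5 rose, at 2.38 and 2.56 against 7.76 and 5.73 CPM (log2 fold change 1.45 ± 0.22, adjusted p = 0.0282).

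Immunoglobulin genes, which plasma cells and B cells transcribe, rose across both chains. Of 86 variable segments tested 46 rose (53.5%), as did 9 of 11 constant genes, and none of either fell. Of 100 kappa and 113 heavy variable genes, 42 and 41 passed the filter. The filter worked by mouse, so a segment near 0 in the control could be tested on its counts in the KO alone. Such a segment could hardly fall, so no conclusion is drawn from the share that rose or from the lack of falls. Ighm, the constant gene of IgM, was at 7.01 and 8.01 CPM in the control and 277 and 159 CPM in the KO (log2 fold change 4.86 ± 0.33, adjusted p = 0.00256). Igkc, the kappa light chain, was at 1.81 and 1.52 CPM in the control and 122 and 72 CPM in the KO (log2 fold change 5.85 ± 0.99, adjusted p = 0.0329). Ighm and Igkc were chosen after their values were seen. Jchain, which links IgM and IgA, was at 1.34 and 0.878 CPM in the control and 43.3 and 24.6 CPM in the KO (log2 fold change 4.93 ± 0.94, adjusted p = 0.041). In these genes tumor 3 of the KO was the higher, whereas Ighg1 was at 0.0762 and 0.0896 against 5.37 and 29.4 CPM, with tumor 6 the higher. Ighg2b was at 0.107 and 0.0896 against 23.6 and 13.1 CPM (log2 fold change 7.51 ± 1.17, adjusted p = 0.0287). Ighg3 had 0 and 0 counts in the control and 425 and 767 in the KO and Ighg2c had 2 and 3 counts in the control and 723 and 639 in the KO. The summed kappa variable segments, a family chosen after the values were seen, stood at 2.74 and 3.17 CPM in the control and 88.5 and 59.6 CPM in the KO, and the heavy variable segments at 1.05 and 0.825 CPM in the control and 52.8 and 42 CPM in the KO. Reads of near-identical segments can be split between them.

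B cell markers followed tumor 6 of the KO. The sum of the B cell list was 3.57 and 8.98 CPM in the control and 13.1 and 99 CPM in the KO, and of the lymph node list 4.24 and 4.68 CPM in the control and 16.1 and 80.5 CPM in the KO. In both lists 2 genes rose, of 13 and 10 tested. A member near 0 in the control could pass the filter through another mouse and could hardly fall. No conclusion is therefore drawn from the lack of falls. Ms4a1, which encodes CD20, was at 0.0914 and 0.0359 against 0.877 and 9.59 CPM (log2 fold change 6.29 ± 1.30, adjusted p = 0.0482). Pax5, the factor that keeps B cell identity, was at 0.107 and 0.269 against 1.37 and 6.16 CPM (log2 fold change 4.34 ± 0.89, adjusted p = 0.047). Cd79a (0.0914 and 0.0359 against 0.381 and 3.74 CPM, adjusted p = 0.0594) and Cr2 (0.0609 and 0.538 against 0.515 and 14.3 CPM, adjusted p = 0.123) did not pass and were chosen after their values were seen. Cxcl13, the chemokine of B cell follicles, was at 0.396 and 0.43 against 3.98 and 4.72 CPM (log2 fold change 3.39 ± 0.38, adjusted p = 0.0148), and it was higher in both KO tumors alike. Without tumor 3 of the KO, 9 B cell genes were called, and without tumor 6 0.

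**Figure D3:**
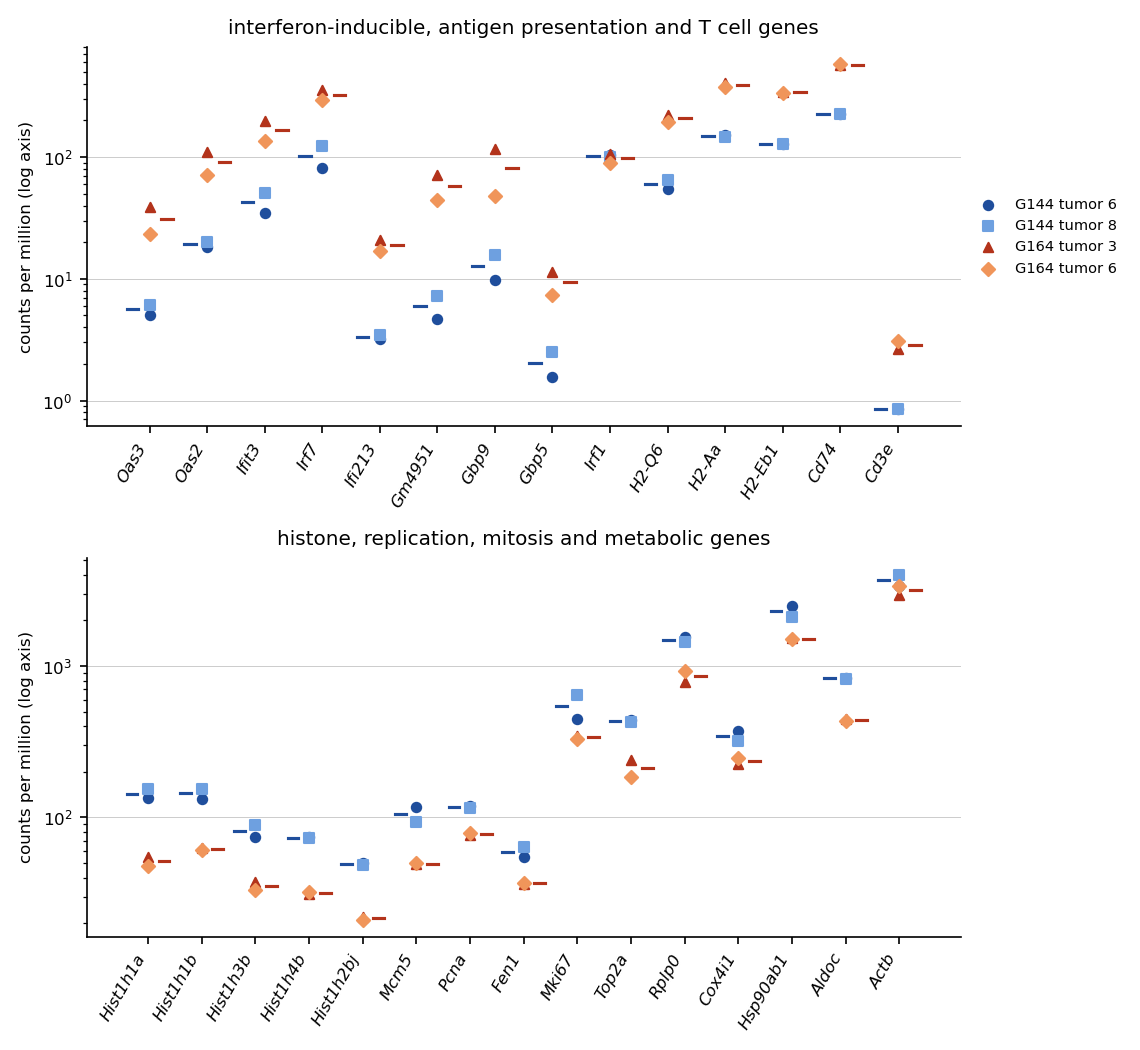
Level of named genes (CPM, log axis) in tumors 6 and 8 of the heterozygous control G144 (blue) and tumors 3 and 6 of the heterozygous KO G164 (red and orange), with a short bar at the mean of each mouse. In the upper panel both KO tumors lie above both control tumors for every gene but Irf1, and in the lower panel they lie below for every gene, by least for Actb, and Mki67, Top2a and Actb did not pass the test. Actb was chosen after its values were seen.

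In the stroma, all 20 fibroblast and matrix genes had positive changes (median 0.66), 3 of them past the threshold, and their sum was 2808 and 3329 CPM in the control and 5342 and 4873 CPM in the KO. Pi16, of fibroblasts around vessels, was at 6.86 and 8.28 CPM in the control and 33.2 and 29.2 CPM in the KO (log2 fold change 2.04 ± 0.29, adjusted p = 0.0257). Dcn, the proteoglycan decorin, was at 59.5 and 68 CPM in the control and 163 and 188 CPM in the KO (log2 fold change 1.46 ± 0.30, adjusted p = 0.047). Pdgfra, the receptor by which fibroblasts sense PDGF, was at 28.2 and 25.9 CPM in the control and 53.8 and 55.9 CPM in the KO (log2 fold change 1.02 ± 0.12, adjusted p = 0.0148). A pair of matrix proteases rose as well. Mmp3 was at 5.74 and 4.89 against 19.9 and 30.4 CPM (log2 fold change 2.24 ± 0.26, adjusted p = 0.016). Mmp2 was at 57.8 and 60.1 against 165 and 150.1 CPM (1.42 ± 0.29, log2). Zeb2, a repressor of epithelial genes that leukocytes also express, was at 27.2 and 38.1 against 64.7 and 65.4 CPM (log2 1.00 ± 0.16). These were the 3 higher genes of 23 in the list of epithelial-mesenchymal transition and invasion. Vim, the mesenchymal filament of that list, was at 189 and 193 against 320.3 and 277 CPM and did not pass (log2 fold change 0.65 ± 0.34, adjusted p = 0.285). Sfrp2, a secreted modulator of Wnt made by fibroblasts, was the single called gene of 24 in the Wnt pathway (8.36 and 9.59 against 27.5 and 22.9 CPM, log2 1.49 ± 0.26). Against G184 the median of the fibroblast list was 0.63 and that of the transition and invasion list -0.07. The log2 differences of the KO from G184 were 1.19 for Pi16, 0.10 for Dcn and 0.27 for Pdgfra. They were 0.78 for Mmp3, 0.22 for Mmp2, -0.17 for Zeb2 and 0.45 for Sfrp2.

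All 7 lymphatic genes were higher in both KO tumors than in both control tumors and 3 passed, while of 14 blood endothelial genes 1 passed (medians 1.56 and 0.19). The difference between these lists was not tested. Mmrn1, a matrix protein of lymphatic and other endothelium, was at 0.107 and 0.43 CPM in the control and 12.6 and 12.7 CPM in the KO (log2 fold change 5.58 ± 0.86, adjusted p = 0.0287). Prox1, the factor that sets lymphatic identity, was at 2.1 and 1.97 against 5.28 and 4.49 CPM (log2 fold change 1.26 ± 0.21, adjusted p = 0.0322). Ccl21a, the chemokine by which lymphatics and lymph nodes draw lymphocytes, had 1 and 4 counts in the control and 210 and 422 in the KO. Near-identical copies of Ccl21a exist, and reads can be split between them. Vwf, of blood vessels, was at 19.3 and 26 against 39.5 and 45.7 CPM (0.91 ± 0.17, log2). The pericyte gene Kcnj8 fell (16 and 18.6 against 10.6 and 10.5 CPM, log2 -0.72 ± 0.14), the single called gene of 7 in that list. Of 14 adipocyte genes Lep, the hormone leptin (0.64 and 0.448 against 1.62 and 3.18 CPM, log2 2.13 ± 0.38), and Pparg, the main factor of fat cells (1.75 and 2.38 against 5.22 and 5.18 CPM, log2 1.33 ± 0.22), rose. The red cell and nerve lists had no called gene, with Hbb-bs, a beta globin, at 28 and 36.6 against 34.6 and 49.2 CPM and Sox10 at 244 and 219 against 191 and 236 CPM. Against G184 the medians of the lymphatic, blood endothelial, pericyte and adipocyte lists were 0.75, -0.11, -0.16 and 0.59.

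In the epithelium, luminal genes had a median log2 fold change of 0.00 and keratinizing genes one of 3.04. The sum of the keratinizing genes changed less, from 315 and 255 CPM in the control to 454 and 441 CPM in the KO. In the median, genes near 0 in the control count as much as abundant ones. The filter worked by mouse, so a keratinizing gene near 0 in the control could pass it on KO counts. Such a gene could hardly fall, so no conclusion is drawn from this median. Of 20 luminal genes none rose and only Cldn4, a tight-junction claudin, fell, at 166 and 141 CPM in the control and 95.5 and 108 CPM in the KO (log2 fold change -0.59 ± 0.12, adjusted p = 0.0478). Esr1, the estrogen receptor, was at 32.4 and 24.3 against 32.1 and 31.9 CPM (log2 fold change 0.17 ± 0.36, adjusted p = 0.806). Sox9 was at 71.3 and 77.6 against 91.6 and 72.3 CPM (log2 fold change 0.14 ± 0.17, adjusted p = 0.652). No gene of the 12 basal genes passed, although 10 lay above the control in both KO tumors. Krt14, the keratin of basal cells, was at 15.6 and 24.9 CPM in the control and 52.9 and 79.5 CPM in the KO (log2 fold change 1.71 ± 0.88, adjusted p = 0.275). Krt5, its partner, chosen after its values were seen, was at 14.8 and 22.4 against 53.9 and 83.6 CPM (log2 fold change 1.89 ± 0.86, adjusted p = 0.226). DESeq2 called 0 of them.

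Squamous keratinization genes, which make the cornified layer of skin, were 21 of 24 past the filter, and 4 rose. The limit of the filter given above holds for those near 0 in the control, here and outside the list. Krt10, of differentiating keratinocytes, was at 2.67 and 3.69 CPM in the control and 66.6 and 17.5 CPM in the KO (log2 fold change 3.73 ± 0.61, adjusted p = 0.031), with tumor 3 the higher. Sbsn was at 4.57 and 6.42 against 10.7 and 15.8 CPM (log2 fold change 1.27 ± 0.25, adjusted p = 0.0441). Krtdap was at 0 and 0.0717 against 3.51 and 6.3 CPM, and Ivl, which encodes involucrin, had 0 and 2 counts in the control and 58 and 93 in the KO. Outside the list the same class was among the largest rises of all coding genes. Rptn (repetin) was at 0.0914 and 0.0896 CPM in the control and 8.5 and 46.5 CPM in the KO (log2 fold change 8.22 ± 1.72, adjusted p = 0.0497). Hrnr (hornerin) was at 0 and 0.108 CPM in the control and 10.9 and 11.5 CPM in the KO. Dmkn (dermokine), another protein of the skin barrier, was at 2.09 and 5.54 CPM in the control and 20.5 and 29.4 CPM in the KO (log2 fold change 2.71 ± 0.44, adjusted p = 0.0309). Muc16, the transmembrane mucin known as CA125, was at 3 and 1.81 CPM in the control and 30.8 and 17.8 CPM in the KO (log2 fold change 3.33 ± 0.46, adjusted p = 0.0243), the single called gene of 13 tested mucins and secreted proteins. No gene of the 14 milk genes passed, and the most abundant, Csn3 (kappa casein), was at 5086 and 5488 against 3311 and 4724 CPM (log2 fold change -0.40 ± 0.27, adjusted p = 0.402). Csn2 (beta casein), chosen after its values were seen, was at 1.78 and 4.36 against 75.4 and 34.7 CPM (log2 fold change 4.17 ± 1.32, adjusted p = 0.115).

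Markers of 2 other tissues appeared in single tumors. The summed level of 15 skeletal muscle genes was 14.9 and 345 CPM in the control and 424 and 17.7 CPM in the KO, so tumor 8 of the control and tumor 3 of the KO held most of it and no muscle gene was called. Myh4, a fast myosin, was at 0.229 and 65.3 against 119 and 0 CPM. Acta1, skeletal actin, chosen after its values were seen, was at 0.503 and 75.8 against 73.6 and 0.144 CPM. Keratins and other genes of the hair root sheath, a family chosen after the values were seen, summed to 2.73 and 3.6 CPM in the control and 4.71 and 317 CPM in the KO. Krt73 had 0 and 1 counts in the control and 5 and 1846 in the KO. Prr9 had 0 and 0 counts in the control and 3 and 1573 in the KO, and Krt25 2 and 2 counts in the control and 3 and 938 in the KO. Nearly all of these were in tumor 6, and none passed the test. Tumor 6 of the KO was also the one with most B cell RNA, and the part of such tissue in the squamous and lymphoid results was not tested.

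**Figure D4:**
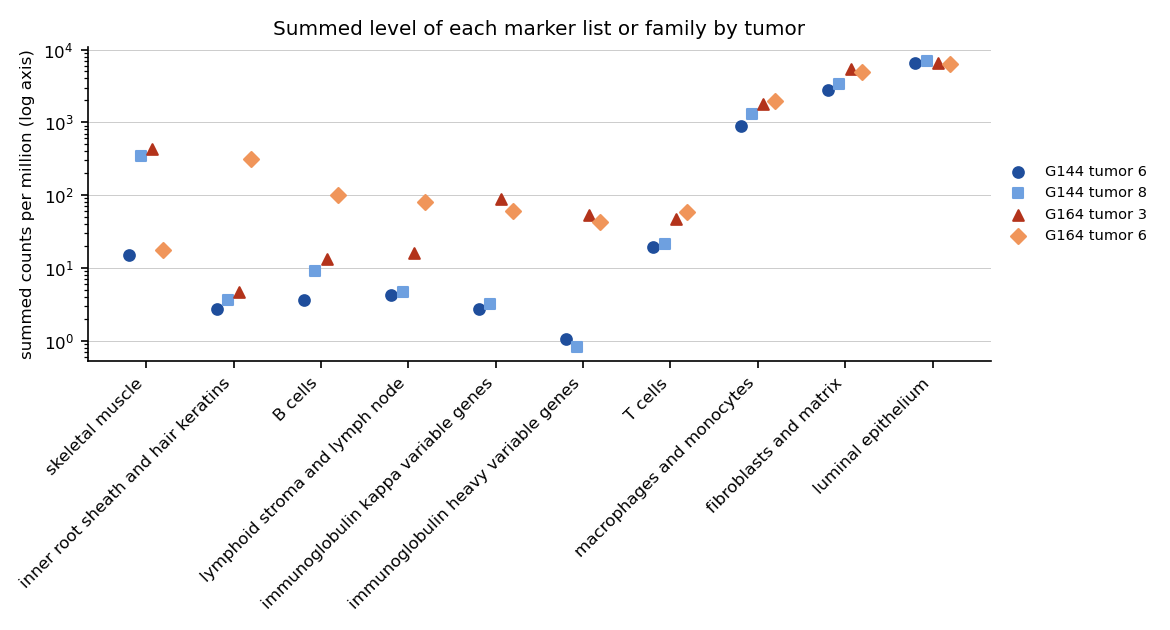
Summed level (CPM, log axis) of marker lists and of 3 families chosen after the values were seen, in tumors 6 and 8 of the control G144 (blue) and tumors 3 and 6 of the KO G164 (red and orange). Skeletal muscle is high in 1 tumor of each mouse, hair root sheath genes in 1 KO tumor, and T cell, fibroblast and immunoglobulin sums are higher in both KO tumors, while luminal sums differ little.

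The lower genes were led by replication-dependent histone genes. These genes are transcribed in S phase to package new DNA, and their mRNA ends in a stem-loop in place of a poly(A) tail, which poly(A) selection would miss and total RNA keeps. The family was chosen after the values were seen. Of 59 such coding genes tested, 41 fell and 0 rose (median log2 fold change -1.04), and in 57 both KO tumors lay below both control tumors. Their summed level was 4132 and 4276 CPM in the control and 2271 and 2069.5 CPM in the KO. Of the linker histone genes, Hist1h1a was at 133 and 154 CPM in the control and 54.8 and 47.7 CPM in the KO (log2 fold change -1.49 ± 0.16, adjusted p = 0.0123). Hist1h1b was at 133 and 155 CPM in the control and 63.2 and 60.7 CPM in the KO (log2 fold change -1.22 ± 0.17, adjusted p = 0.0257). Of the core histones, Hist1h4b was at 73.8 and 73.3 CPM in the control and 31 and 31.9 CPM in the KO (log2 fold change -1.22 ± 0.14, adjusted p = 0.016), and tumors of each mouse were nearly equal. Hist1h3b was at 74.6 and 88.7 against 37.4 and 33.2 CPM (log2 fold change -1.21 ± 0.24, adjusted p = 0.0452). Hist1h3g was at 43 and 59.6 against 22.5 and 20.1 CPM (log2 -1.27 ± 0.23). Genes of H2A and H2B fell too, with Hist1h2an at 17.8 and 24.5 against 8.84 and 9.11 CPM (log2 -1.23 ± 0.23) and Hist1h2bj at 50.3 and 48.2 against 22.1 and 21.1 CPM (log2 -1.19 ± 0.18). Members are alike in sequence, and reads can be split between them. Without 1 tumor at a time 1, 0, 1 and 0 of the family were called lower, and DESeq2 called 52.

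Genes of DNA replication and of mitosis lay lower too. All 26 DNA replication genes lay lower in both KO tumors (median -0.68) and 7 fell. Mcm5, a subunit of the replicative helicase, was at 117 and 93.4 CPM in the control and 49.3 and 49.7 CPM in the KO (log2 fold change -1.09 ± 0.18, adjusted p = 0.0319). Gins1, another part of that helicase, was at 11.2 and 11.3 against 5.58 and 5.92 CPM (log2 fold change -0.97 ± 0.20, adjusted p = 0.049). Gins2 (19.1 and 15.4 against 10.2 and 9.99 CPM) and Fen1, which trims Okazaki fragments (55 and 63.9 against 36.2 and 37.1 CPM), fell by less (log2 -0.77 ± 0.15 and -0.70 ± 0.14). Pcna, the sliding clamp, chosen after its values were seen, was at 119.5 and 115 against 76.9 and 78.5 CPM (log2 fold change -0.59 ± 0.12, adjusted p = 0.0427). All 24 mitosis genes also lay lower in both KO tumors (median -0.84), but none passed by edgeR, and 15 passed by DESeq2. Mki67, the proliferation marker, was at 445 and 642 CPM in the control and 344 and 332 CPM in the KO (log2 fold change -0.69 ± 0.35, adjusted p = 0.275). Top2a, also chosen after its values were seen, was at 438 and 424 against 240.1 and 186 CPM (log2 fold change -1.02 ± 0.30, adjusted p = 0.102). Against G184 the median of the mitosis list was 0.42, that of replication 0.32 and that of histones 0.45, so the medians lay below 0 against G144 and above 0 against G184. Of 14 cyclins and inhibitors, Rb1, the brake on S phase, was at 179 and 209.6 against 403 and 397 CPM (log2 fold change 1.04 ± 0.17, adjusted p = 0.0322). In G184 Rb1 stood at 383 and 493 CPM (log2 difference of the KO from G184 -0.13). Cdkn1c, which encodes the imprinted inhibitor p57, was at 17 and 9.54 against 3.68 and 4.17 CPM (log2 fold change -1.76 ± 0.33, adjusted p = 0.0394), and no other gene of the list passed. Cdkn1c was the single called gene of 21 imprinted genes. In G184 Cdkn1c stood at 3.36 and 2.55 CPM (log2 difference of the KO from G184 0.41) and in G174 at 19.4 and 13.2 CPM.

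**Figure D5:**
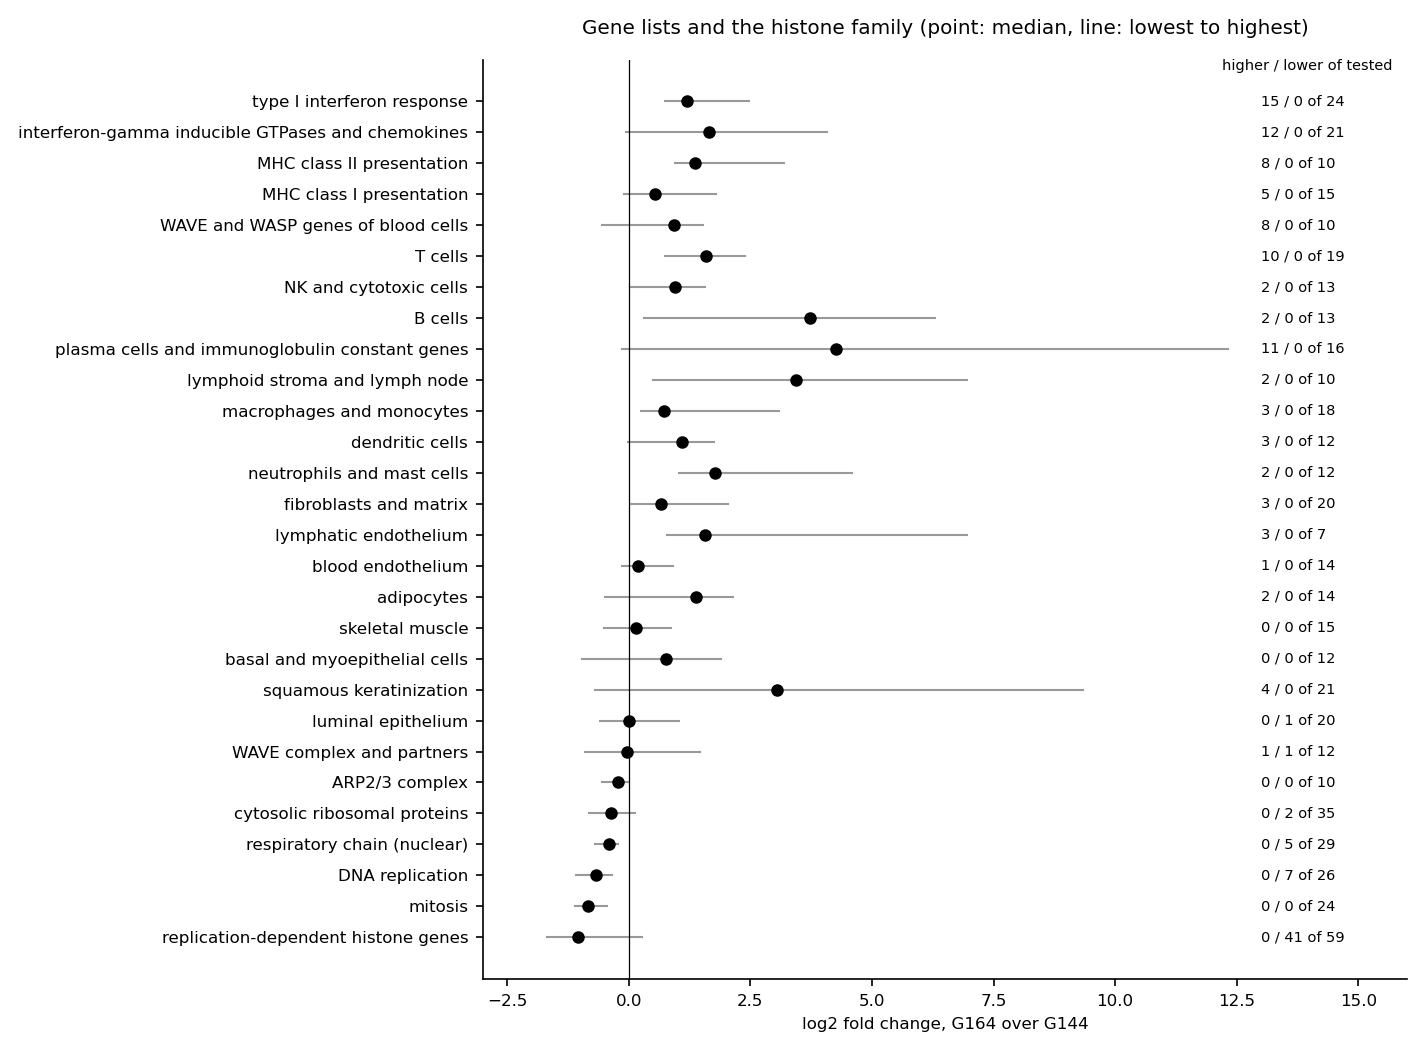
Log2 fold change (G164 over G144, horizontal axis) of 27 gene lists and the histone family, with the median of the members tested as a point and their lowest to highest value as a line. The numbers on the right count members higher and lower at an adjusted p of 0.05, and immune and interferon lists lie to the right of 0 while cell cycle, ribosomal and respiratory lists lie to the left.

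Among abundant genes of protein synthesis and respiration, falls were of less than a factor of 2. Of 35 ribosomal protein genes 33 were lower in both KO tumors (median -0.37), and 2 passed. Rplp0 was at 1552 and 1432 CPM in the control and 786 and 921 CPM in the KO (log2 fold change -0.81 ± 0.15, adjusted p = 0.039). Rps2 was at 1072 and 889 CPM in the control and 604 and 642 CPM in the KO (log2 fold change -0.65 ± 0.13, adjusted p = 0.0437). All 29 nuclear genes of the respiratory chain were lower in both KO tumors (median -0.40), and 5 passed. Among them, Uqcrq of complex III was at 58.6 and 62.2 against 35.7 and 39.6 CPM (log2 -0.68 ± 0.11) and Cox4i1 of complex IV at 372 and 321 against 224 and 246 CPM (log2 -0.56 ± 0.12). Ndufa4 was at 145 and 141 against 101 and 97.8 CPM (log2 -0.52 ± 0.09), and Atp5f1 of the ATP synthase at 262 and 281 against 186 and 192 CPM (log2 -0.52 ± 0.09). No gene of the mitochondrial genome passed, of 12 tested, and mt-Rnr2 was at 7615 and 8476 against 8418 and 7160.4 CPM (log2 fold change -0.05 ± 0.14, adjusted p = 0.87). Against G184 the medians of the ribosomal and respiratory lists were 0.12 and 0.07, so both had another sign than against G144. With scaling by library size alone, the medians of these lists against G144 were -0.30 and -0.32.

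Chaperone genes were among the lower genes, few of them called. Of 7 genes of the chaperonin TCP1 ring, a family chosen after the values were seen, 1 fell, and of 18 immediate early and stress genes 1 fell and 5 that did not pass lay higher in both KO tumors. Hsp90ab1, the constitutive HSP90, was the most abundant of all called genes, at 2489 and 2124 CPM in the control and 1530.5 and 1500.1 CPM in the KO (log2 fold change -0.61 ± 0.12, adjusted p = 0.0436). Hsph1, a partner of HSP70, was at 117 and 107 CPM in the control and 56 and 56.6 CPM in the KO (log2 fold change -1.0 ± 0.10, adjusted p = 0.0106). Tcp1, of the chaperonin ring that folds actin and tubulin, was at 434 and 375 CPM in the control and 266 and 261 CPM in the KO (log2 fold change -0.62 ± 0.13, adjusted p = 0.0483). Eif5a, a factor of translation, was at 516 and 499 against 323 and 318 CPM (-0.66 ± 0.12, log2). Calm2, a calmodulin gene, was at 807 and 885 against 532 and 457 CPM (-0.78 ± 0.12, log2). Arf1, a GTPase of Golgi traffic, was at 488 and 516 against 366 and 362 CPM (-0.46 ± 0.09, log2). Of 19 hypoxia and glycolysis genes 2 fell and 0 rose (median log2 fold change -0.20, 5 positive). Aldoc, a glycolytic aldolase outside that list, was at 835 and 822 CPM in the control and 449 and 431 CPM in the KO (log2 fold change -0.91 ± 0.11, adjusted p = 0.017). Eno1, the enolase, was at 612 and 637 CPM in the control and 384 and 435 CPM in the KO (log2 fold change -0.61 ± 0.11, adjusted p = 0.0357). Gapdh was at 392 and 430.3 CPM in the control and 242 and 249 CPM in the KO (log2 fold change -0.75 ± 0.10, adjusted p = 0.021), and it is outside the list and was chosen after its values were seen. Ldha, at 837 and 1265 against 877 and 1058 CPM, and Slc2a1, the glucose transporter, at 45.1 and 43.4 against 37.5 and 53.3 CPM, overlapped between the mice and did not pass, and both were chosen in the same way. Egln3, an oxygen sensor induced in hypoxia, was at 191 and 152 CPM in the control and 64.7 and 87.1 CPM in the KO (log2 fold change -1.18 ± 0.19, adjusted p = 0.0293). Eno1 and Egln3 were the called genes of the list. Of 18 lipid synthesis genes only Elovl6, which extends fatty acids, fell (61.4 and 63.4 against 41.1 and 46.5 CPM, log2 -0.51 ± 0.10). Against G184 the medians were 0.10 for the chaperonin ring, 0.11 for hypoxia and glycolysis, 0.05 for lipid synthesis and -0.25 for the stress genes. All of these medians were below 0 against G144, and only that of the stress genes kept its sign.

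Among coding genes outside these lists and families, the gene named a (agouti) changed most. It encodes a signal protein that switches hair pigment from black to yellow, and C57BL/6 mice carry a nonagouti allele. It was at 0.0762 and 0.0538 CPM in the control and 122 and 123 CPM in the KO (log2 fold change 10.82 ± 0.46, adjusted p = 0.000273), with both tumors of a mouse nearly equal. It was at 0.0988 and 0.0777 CPM in G184 and 60.9 and 116 CPM in G174. Cre and the strain of the Cre line cannot be told apart in this difference. Xkr6 was at 0.64 and 1.06 CPM in the control and 21.5 and 24.4 CPM in the KO (log2 fold change 4.76 ± 0.84, adjusted p = 0.0359) and at 27.1 and 22.2 CPM in G184. Enpp2, which encodes autotaxin, the enzyme that makes lysophosphatidic acid, was at 1.6 and 2.13 CPM in the control and 8.04 and 14.3 CPM in the KO (log2 fold change 2.58 ± 0.43, adjusted p = 0.0322). F830016B08Rik was at 3.2 and 5.77 CPM in the control and 60.6 and 37.7 CPM in the KO (log2 fold change 3.46 ± 0.40, adjusted p = 0.0154). It lies in the same 2 Mb window of chromosome 18 as the interferon-inducible genes Gm4951 and Iigp1. In G184 Enpp2 stood at 7.17 and 9.64 CPM and F830016B08Rik at 80.7 and 76.5 CPM.

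Other coding genes had the largest falls. Tenm3, a teneurin of cell adhesion, was at 53.8 and 39.7 CPM in the control and 9.91 and 5.29 CPM in the KO (log2 fold change -2.62 ± 0.52, adjusted p = 0.0441) and at 4.37 and 2.61 CPM in G184 and 121 and 46.7 CPM in G174. It was the single called gene of 10 teneurins and their latrophilin receptors. Ahsg, the plasma protein fetuin-A, was at 21.9 and 4.77 CPM in the control and 0.515 and 0.225 CPM in the KO (log2 fold change -5.19 ± 0.90, adjusted p = 0.0347), with the control tumors well apart. Adamts18, a secreted metalloprotease, was at 12.6 and 8.64 CPM in the control and 1.52 and 2.63 CPM in the KO (log2 fold change -2.35 ± 0.34, adjusted p = 0.0257). Zfp951 was at 20.7 and 12.5 against 4.33 and 3.42 CPM (log2 fold change -2.10 ± 0.44, adjusted p = 0.0492). Acot7, a thioesterase of fatty acyl-CoA (41.6 and 33.8 against 13.5 and 17 CPM), Bex2 (18.1 and 16.7 against 6.65 and 7.55 CPM) and Dnph1, a nucleotide hydrolase (11.6 and 11.1 against 4.92 and 4.64 CPM) had log2 fold changes of -1.31 ± 0.24, -1.29 ± 0.17 and -1.25 ± 0.15. In G184, Ahsg stood at 0.451 and 0.171 CPM, Adamts18 at 1.96 and 1.85 CPM and Zfp951 at 5.5 and 13.5 CPM. Acot7 stood there at 18.4 and 14.7 CPM, Bex2 at 7.55 and 6.03 CPM and Dnph1 at 4.4 and 4.21 CPM. The log2 differences of the KO from G184 were 0.21, 0.13, -1.29, -0.12, 0.07 and 0.15, in the same order.

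Noncoding genes with large changes included several processed pseudogenes. Gm8730, a processed pseudogene, was at 4.05 and 3.39 CPM in the control and 114 and 135 CPM in the KO (log2 fold change 5.07 ± 0.15, adjusted p = 9.16e-05), and at 113 and 118 CPM in G184 and 3.87 and 4.03 CPM in G174. Rprl3, an RNA like that of ribonuclease P, was at 0.548 and 0.359 CPM in the control and 75.1 and 63 CPM in the KO (log2 fold change 7.23 ± 0.29, adjusted p = 0.000273), and at 74.4 and 101 CPM in G184 and 1.11 and 1.43 CPM in G174. Gm9625 and Gm14165 were at 2.88 and 2.87 against 30.7 and 36.3 CPM and 0.548 and 0.341 against 9.34 and 10.3 CPM. Gm13394 was instead high in both Cre+ mice, at 0.0305 and 0.0896 CPM in the control and 20.5 and 21.3 CPM in the KO and at 0.0423 and 0.0155 CPM in G184 and 33.5 and 31.1 CPM in G174. Gm5970 was at 0.396 and 1.04 against 11.8 and 7.01 CPM, and it lies within Gm4951 on the same strand, so reads of these genes may not be told apart. Among the falls, Hist1h2al was at 27.8 and 37.3 CPM in the control and 0.0572 and 0.128 CPM in the KO (log2 fold change -8.39 ± 0.40, adjusted p = 0.000432). Rps3a3 was at 139 and 121 CPM in the control and 6.42 and 7.47 CPM in the KO (log2 fold change -4.22 ± 0.21, adjusted p = 0.000489). In G184 they were at 0.0282 and 0.0622, and at 6.35 and 8.56 CPM. Gm3608 (13.9 and 13.9 against 0.629 and 0.513 CPM), Rpl34-ps1 (15.4 and 17.6 against 0.762 and 0.93 CPM), Rps3a2 (17.2 and 14 against 3.81 and 4.19 CPM) and Hist3h2bb-ps (10.9 and 8.3 against 3.33 and 3.21 CPM) fell too. Most are copies of abundant genes, and the counting of reads between a gene and its copies is uncertain for them. Of 1252 processed pseudogenes tested, 17 rose and 11 fell.

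Some genes had at most 3 counts in each KO tumor. Msln, the surface protein mesothelin, had 132 and 764 counts in the control and 0 and 3 in the KO, and was called lower (log2 fold change -8.14 ± 1.48, adjusted p = 0.0378). Gm4847 had 78 and 147 counts in the control and 1 and 1 in the KO and Gm12666 had 99 and 76 counts in the control and 1 and 0 in the KO, and both were called. Olig2 had 161 and 0 counts in the control and 3 and 0 in the KO, all but 3 of them in 1 tumor, and was not called (adjusted p = 0.17), nor was Gm9522 (adjusted p = 0.0559).

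By position, calls were unevenly spread. The share of tested genes called was 8.52% on chromosome 17, 7.48% on chromosome 6 and 7.22% on chromosome 13, against 4.01% overall and 2.37% on chromosome 2, which holds Abi1. Windows of 2 Mb with at least 6 calls mark gene clusters. On chromosome 13 the window from 22000001 to 24000000 held 47 tested genes, of which 25 fell, and all 25 are histone genes. The next window below it, from 20000001 to 22000000, held 12 lower genes of 36, again all histones. On chromosome 1, 12 of 41 genes rose from 172000001 to 174000000, in the Ifi200 cluster and beside it. On chromosome 6, 16 of 26 rose from 68000001 to 70000000, all kappa segments, and on chromosome 12, 18 of 33 from 114000001 to 116000000, all heavy segments. Segments near 0 in the control could be tested on KO counts alone, so the shares in these windows cannot be set against the 4.01%. The share of chromosome 6 includes such segments. Chromosome 17 held 10 higher and 3 lower genes of 126 from 34000001 to 36000000, with the class II genes, and 11 lower and 1 higher of 96 from 24000001 to 26000000, among them Rps2 and Msln. Within 5 Mb of Abi1 on either side, 4 of 148 other genes were called. Apbb1ip (3.84 and 4.37 against 9.41 and 10.2 CPM, log2 1.25 ± 0.26) and Il1f9 (0.0305 and 0.0359 against 0.762 and 1.59 CPM, log2 5.08 ± 0.69) rose. Clic3 (2.97 and 4.09 against 0.686 and 1.01 CPM, log2 -2.05 ± 0.42) and Edf1 (147 and 170.3 against 104 and 108 CPM, log2 -0.58 ± 0.10) fell, and the 4 were named after their values were seen.

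Pathways often followed in mammary tumors showed few calls. None of 14 EGF family and ErbB genes and none of 21 TGF-beta and BMP genes passed by edgeR, while DESeq2 called 1 higher and 1 lower in each. Egfr, the receptor of EGF, was at 220.1 and 257 against 341 and 247 CPM (log2 fold change 0.30 ± 0.22, adjusted p = 0.443). Tgfb3 was at 328 and 382 against 306 and 402 CPM (log2 fold change 0.00 ± 0.17, adjusted p = 0.992). No Hox gene passed of 21 tested, by either tool, and Hoxb2 was at 19.1 and 3.94 against 1.91 and 5.26 CPM, with a single control tumor high. The abundant nuclear noncoding RNAs had no call by edgeR of 12 tested, with Rn7sk, the RNA that holds back transcription elongation, at 20876 and 25194 against 18779 and 20465 CPM (log2 fold change -0.23 ± 0.20, adjusted p = 0.517).

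The heterozygous change was also set against the homozygous change (G174 over G184) by a test of the difference between them. That difference passed an adjusted p of 0.05 in 25.1% of all genes tested and in 842 of the 890 genes called here (94.6%), and both counts use the same tumors of G144 and G164. For Abi1 the homozygous minus the heterozygous log2 change was -3.05 ± 0.23 (adjusted p = 0.000889).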

How the data were processed

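Total RNA depleted of ribosomal RNA from 8 mammary tumors of 4 mice was sequenced in 4 lanes and 2 runs. Per the methods of the study, the authors aligned paired reads to GRCm38 (mm10) with STAR and deposited raw read counts per gene for each lane, with unstranded, forward and reverse columns. The annotation release and the version of STAR were not given in the sources used here. Gene IDs were matched to GENCODE M21, 54487 of 55385 with their version. A further table held raw counts that the authors summed per mouse, and it served only for gene names and for checking the sums.

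Reverse-strand counts were summed over lanes and runs into 1 library per tumor. Reads in no gene were left out of library sizes. Genes were filtered by filterByExpr by mouse, which left 22187 genes and 99.96% of counts, scaled by TMM and tested with edgeR 4.0.16 in R 4.3.3 (quasi-likelihood, Benjamini-Hochberg adjustment, threshold 0.05) in 1 fit over all 8 tumors with 4 residual degrees of freedom, so the tumors of G184 and G174 entered the estimate of the spread. The same fit tested whether homozygous and heterozygous changes differed. CPM values and ± after a mean are TMM-scaled levels and SDs, and ± after a log2 fold change is its standard error. Lower precision of low genes comes from the depth of 50346075 to 66713353 counts. The steps were run on simulated counts, drawn for independent libraries with a common dispersion for all genes. Gene by gene spread and tumors that share a mouse were not simulated, so no conclusion on the calls is drawn from it. DESeq2 1.42.0 and other filters, scalings, strands, runs and samples were alternatives.

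Named genes were Abi1, the genes the study names, the 15 coding and 6 noncoding genes with at least 5 CPM and the largest change in each direction, up to 4 called members of each of 46 lists (the most abundant where none was called), the 10 most abundant called genes, and up to 5 genes in each direction with at most 3 counts in each tumor of 1 mouse. Others are marked in the text. Members, lists and rules were chosen with earlier results of these data known. The share of genes not overlapping between the mice was counted over all genes tested. Some genes are not reported here.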

Additional observations from a re-analysis of the deposited data

Results flagged for a closer look

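The log2 change of Abi1 with homozygous loss (G174 over G184) minus that with heterozygous loss (G164 over G144) was -3.05 ± 0.23 (standard error, 2 tumors per mouse, edgeR adjusted p = 0.000889). It is listed because a test of the difference itself passed. By the same test the homozygous and the heterozygous change differed in 842 of the 890 genes called here and in 156 of the 197 named genes that were tested, against 25.1% of all genes. The calls and the differences use the same tumors of G164 and G144, so the counts do not stand apart from the calls. Outliers within a mouse were not looked for, since each had 2 tumors.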

How the results depend on the processing

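The fall of Abi1 and the direction of all 142 named genes that were called were kept under every alternative in which they were tested. Scaling by library size alone gave 148 lower genes. Without a filter on low counts 1687 genes were higher and 927 lower. DESeq2 called 1398 higher and 1404 lower, and a fit of only the 4 tumors compared called 506 lower. When a change of at least 1.5-fold was required, 68 genes were higher and 14 lower, and Abi1 (-0.89) had an adjusted p of 0.293. Leaving out 1 of the 8 tumors at a time gave 9 to 678 higher genes, 4 to 409 lower genes and log2 fold changes of Abi1 from -1.02 to -0.78. The lowest counts came without tumor 6 of G144 (9 higher, 7 lower) and without tumor 6 of G164 (33 higher, 4 lower), where a mouse is left with 1 tumor. The other settings gave counts within 1.5 times of those reported. Of the 142 called genes named, 10, 13, 35 and 18 were still called without tumor 6 of G144, tumor 8 of G144, tumor 3 of G164 and tumor 6 of G164, 26 against a 1.5-fold change, and 103 to 142 under the other alternatives. No paired analysis was possible because the compared mice share only tumor number 6, and a tumor number marks no common animal. With 2 tumors of 1 mouse per genotype, the number of mice limits every comparison, and genes under about 0.05 CPM rest on 3 counts or fewer.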
